A study of Homo sapiens with 6 samples.

Results

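The 9 rows described here carry the names of nuclear genes whose sequence resembles mitochondrial DNA. They were chosen by symbol, 9 of the 25277 rows of the table, and are the microRNA genes MIR6723 and MIR4461 and 7 genes of the MTRNR2L family (MTRNR2L1, 2, 3, 6, 8, 9 and 10). The symbols were picked for that resemblance and because MIR6723 and MIR4461 hold a large share of all FPKM (fragments normalized to transcript length and library size), so their levels are a description. The libraries were made from the cell lines Jeko and Rec-1, both derived from mantle cell lymphoma (a cancer of B cells) and grown in RPMI1640 with fetal bovine serum. In each line cells were transduced with a doxycycline-inducible CRISPR/Cas9 vector that was empty (1 control library) or carried sgRNA 1 or sgRNA 2 against NR4A1 (1 library each), and every library was taken after 48 h of doxycycline. Whether a stable line was 1 clone or a pool is not given in the sources used here, and guides were taken as the replicates of a line.

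Mitochondria keep a small circular genome that is transcribed from both strands into long precursors, which are cut into ribosomal RNAs, transfer RNAs and the mRNAs of respiratory chain subunits. Over evolution pieces of this DNA were copied into the chromosomes. Genes annotated in such nuclear copies share long stretches of sequence with highly expressed mitochondrial RNAs. The MTRNR2L genes are copies of MT-RNR2, the mitochondrial gene of the large (16S) ribosomal RNA, and are annotated for a short open reading frame that encodes peptides like humanin, a small peptide described as protective against cell death. The table holds 0 rows whose symbol starts with MT-, the prefix used here for genes of the mitochondrial genome itself. Rows under other names for these genes were not searched for. Where a copy and mitochondrial DNA are identical, a fragment from one cannot be told apart from a fragment of the other.

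The sequence of MIR4461 is shown because it can be set base by base against the mitochondrial transcript it resembles. GENCODE places MIR4461 (ENSG00000263963.1) on chromosome 5 from 134263729 to 134263802 (GRCh37, plus strand). It lies in an intron of PCBD2, a gene for a pterin dehydratase cofactor protein, and inside MTND4LP30, a pseudogene on the minus strand. Its 74 bases match mitochondrial bases 10684 to 10757, within MT-ND4L, a gene for a subunit of respiratory complex I, at all but 4 positions (94.6% identity). The sequences are shown 5′ to 3′ on the strand of the hairpin, with the positions that differ in capitals. This strand is opposite to the MT-ND4L mRNA.
MIR4461, chromosome 5: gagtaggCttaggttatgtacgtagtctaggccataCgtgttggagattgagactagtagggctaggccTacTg
Mitochondrial DNA, minus strand: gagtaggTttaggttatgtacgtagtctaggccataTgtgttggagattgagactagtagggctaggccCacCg

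The MIR4461 locus is part of a nuclear copy of 5219 bases, which runs from mitochondrial base 10269 to 15487 at 94.1% identity and holds whole copies of MT-ND4L, MT-ND4, MT-ND5 and MT-ND6. Its MT-ND4L piece was 94.9% identical and its MT-ND4 piece 95.7%. For MIR6723 the annotation used here has no entry, and its position and sequence were not used. As background, MIR6723 is known as a hairpin in a nuclear copy of MT-CO1, the gene of cytochrome c oxidase subunit 1, a core subunit of respiratory complex IV. The longest nuclear copy at 90% identity or more in GRCh37 holds that gene. It lies on chromosome 1 from 564461 to 570304 and matches mitochondrial bases 3911 to 9755 at 98.5% identity, with MT-CO1 whole at 98.6%. In its MT-CO1 piece 99.3% of all 50-base windows had at most 2 differences from mitochondrial DNA. Whether fragments from there are counted in the MIR6723 row was not tested.

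For the MTRNR2L rows the humanin-like reading frame of each copy can be set base by base against mitochondrial DNA. GENCODE gives the loci of MTRNR2L1, MTRNR2L10, MTRNR2L6 and MTRNR2L3. MTRNR2L2, MTRNR2L8 and MTRNR2L9 were placed by their neighbours in the RefSeq gene table (AMPD3 and RNF141 for MTRNR2L8, PRIM2 and FKBP1C for MTRNR2L9), between which GRCh37 holds 1 copy of MT-RNR2 each. The frames are shown without the stop codon, 5′ to 3′ on the strand of MT-RNR2, with bases that differ from mitochondrial DNA in capitals. In GRCh37 they lie on the plus strand for MTRNR2L1, MTRNR2L6 and MTRNR2L9 and on the minus strand for the others.
Mitochondrial DNA, bases 2633 to 2704: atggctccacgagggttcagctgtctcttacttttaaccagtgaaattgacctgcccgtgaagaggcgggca
MTRNR2L8: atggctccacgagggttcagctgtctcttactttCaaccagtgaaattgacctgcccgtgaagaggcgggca
MTRNR2L1: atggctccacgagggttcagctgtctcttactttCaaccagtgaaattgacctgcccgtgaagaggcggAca
MTRNR2L2: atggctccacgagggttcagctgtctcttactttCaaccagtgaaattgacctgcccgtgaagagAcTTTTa
MTRNR2L9: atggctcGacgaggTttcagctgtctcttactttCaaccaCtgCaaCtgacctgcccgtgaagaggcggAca
MTRNR2L6: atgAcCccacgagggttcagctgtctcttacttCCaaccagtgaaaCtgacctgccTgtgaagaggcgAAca
MTRNR2L3: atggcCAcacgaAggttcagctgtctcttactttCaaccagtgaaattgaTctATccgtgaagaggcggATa
MTRNR2L10: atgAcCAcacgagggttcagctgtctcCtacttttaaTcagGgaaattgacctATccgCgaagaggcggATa

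The frame of MTRNR2L8 (chromosome 11, 10529702 to 10529773) differed from mitochondrial DNA at 1 of 72 bases and that of MTRNR2L1 (chromosome 17, 22023388 to 22023459) at 2. The others differed at 6 bases in MTRNR2L2 (chromosome 5, 79945834 to 79945905), 7 in MTRNR2L9 (chromosome 6, 62284233 to 62284304), 8 in MTRNR2L6 (chromosome 7, 142375063 to 142375134), 9 in MTRNR2L3 (chromosome 20, 55934024 to 55934095) and 11 in MTRNR2L10 (chromosome X, 55208356 to 55208427). In MTRNR2L2 the last 7 bases lay beyond the end of the alignment and were read on without gaps, and most of its 6 differences lie there. Over the whole aligned part of MT-RNR2 identity was 94.5% for MTRNR2L2, 93.0% for MTRNR2L8, 90.7% for MTRNR2L9, 88.4% for MTRNR2L1, 84.3% for MTRNR2L6, 79.9% for MTRNR2L10 and 78.5% for MTRNR2L3. The copies also resemble each other. MTRNR2L2 and MTRNR2L8 were identical at 990 of 1027 shared positions (96.4%), so the rows are not independent measurements.

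NR4A1, the targeted gene, was 5.99 FPKM in the Jeko control, 3.89 and 4.44 with sgRNA 1 and 2, 11.6 in the library labelled Rec-1 control, and 27.4 and 12.7 with sgRNA 1 and 2 there, so it was below its control with both guides in Jeko and above it with both in Rec-1. Its RNA level does not measure editing. Libraries of the series did not all go with their labels. Across the 11400 genes that passed the filter (mean FPKM of 1 or more), log2(FPKM + 1) of the library labelled Rec-1 control correlated at 0.941 (Pearson) with the Jeko control but at 0.757 and 0.762 with sgRNA 1 and 2 of its own label; genes are not replicates, and no p is given. CCND1, the cyclin that defines mantle cell lymphoma, ranged from 442 to 815 FPKM in the 3 Jeko libraries and the library labelled Rec-1 control, and was 0.696 and 0.592 in Rec-1 sgRNA 1 and 2. CD79A, a B-cell receptor chain, was at least 265 FPKM in all 6 libraries, and CD5, a marker of the same list, at most 0.0785 FPKM. CD3D, a T-cell receptor chain, reached 66.3 and 95.3 FPKM in Rec-1 sgRNA 1 and 2 and at most 0.438 in the other 4 libraries. CD3G was 30.5 and 18.7 FPKM there and between 1.75 and 4.96 in the other 4. The T-cell marker CD8A went the other way, at 0 in Rec-1 sgRNA 1 and 2 and at most 0.582 FPKM elsewhere. All 5 myeloid markers were under 2 FPKM throughout. Each Rec-1 value below that is set against its control includes these differences, and their part in it was not tested. In bulk RNA, fewer cells of a type and less RNA per cell cannot be told apart.

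MIR6723 and MIR4461 were the 2 highest rows of the table in every library. MIR6723 was 199572 FPKM in the Jeko control, 275388 in Jeko sgRNA 1, 264500 in Jeko sgRNA 2, 255581 in the Rec-1 control, 81478 in Rec-1 sgRNA 1 and 188892 in Rec-1 sgRNA 2. The Rec-1 sgRNA 1 library stood lowest, and the other 5 overlapped between the lines and between control and sgRNA. Rec-1 sgRNA 1 is also the library in which low values did not share the step of a single fragment with the Jeko control. The commonest ratio there was shared by 1.96% of 562 low rows, against between 30.5% and 35.6% in the other 4 libraries.

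MIR4461 was 62056 FPKM in the Jeko control, 150173 in Jeko sgRNA 1, 155693 in Jeko sgRNA 2, 107303 in the Rec-1 control, 114547 in Rec-1 sgRNA 1 and 93667 in Rec-1 sgRNA 2. The Jeko control stood lowest and both Jeko sgRNA libraries highest, with the 3 Rec-1 libraries between them. MIR6723 was above MIR4461 in 5 of 6 libraries, and their ratio was 3.22, 1.83 and 1.70 in Jeko (control, sgRNA 1, sgRNA 2) and 2.38, 0.711 and 2.02 in Rec-1. PCBD2, the host gene of MIR4461, was between 3.32 and 5.90 FPKM.

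**Figure D1:**
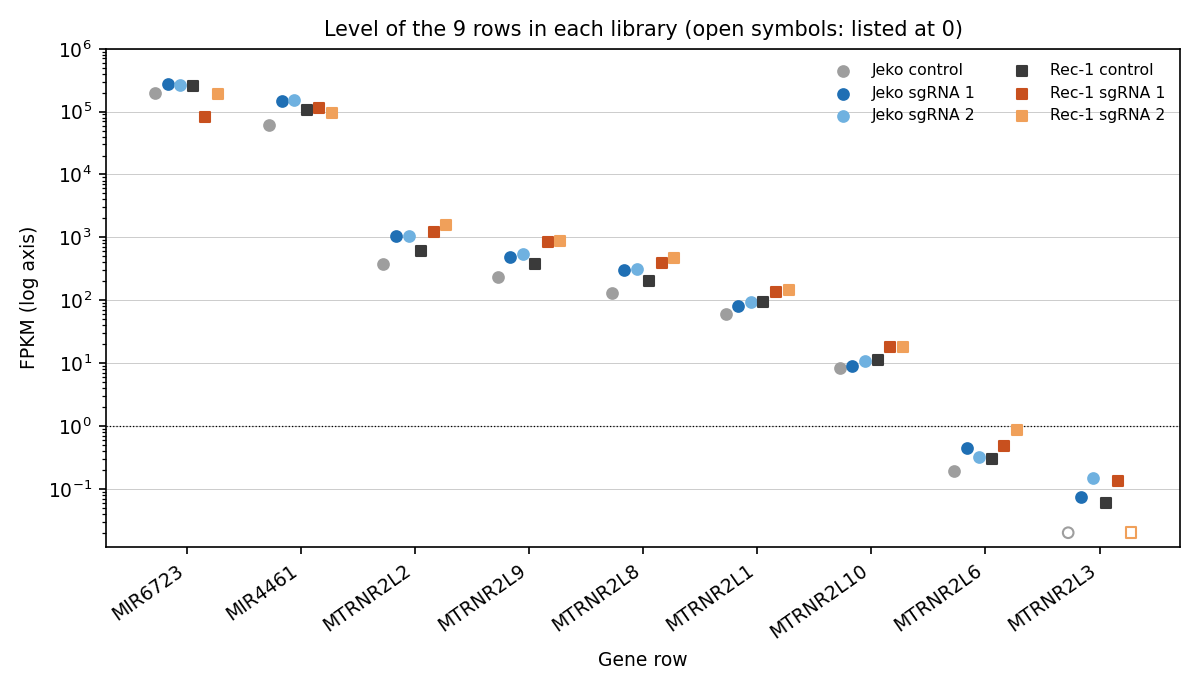
FPKM (log axis) of the 9 rows in each of the 6 libraries, with circles for Jeko, squares for Rec-1, and open symbols for a row listed at 0. MIR6723 and MIR4461 lie above 62056 FPKM in every library, MTRNR2L2 between 371 and 1575, and MTRNR2L6 and MTRNR2L3 below the dotted line at 1 FPKM.

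Together the microRNA rows held 25.4%, 36.7% and 36.9% of the summed FPKM in Jeko (control, sgRNA 1, sgRNA 2) and 33.1%, 21.6% and 28.8% in Rec-1. The next highest row was a ribosomal protein gene in each library, RPL41 or RPS27, at between 11542 and 22453 FPKM. Such a level is unlike that of other microRNA rows. Of 1632 rows with a microRNA symbol 1474 were listed at 0 in all 6 libraries, and the third highest by mean, MIR3064, had 1689.6 FPKM. A share of summed FPKM is not a share of fragments, since FPKM divides by a length that is very short here. With FPKM multiplied by annotated length, 74 bases for MIR4461, that row held between 0.270% (Jeko control) and 0.677% (Jeko sgRNA 2) of the fragments of all rows with a length. Set against all mapped fragments, as FPKM is defined, the figures were 0.459% and 1.15%. Both are nominal, because the authors' length for this row is not given in the sources used here.

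**Figure D2:**
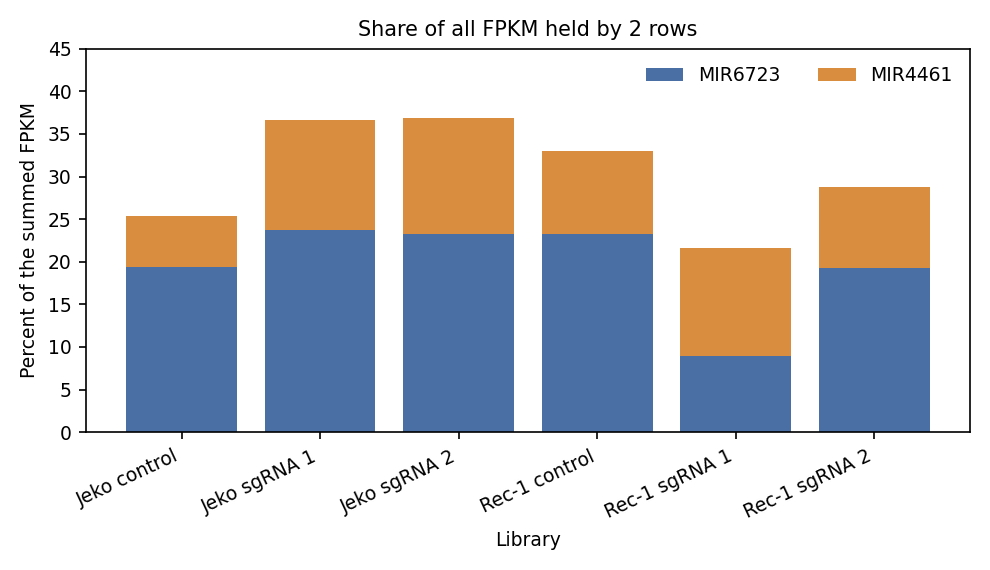
Percent of the summed FPKM of each library held by MIR6723 (lower part of a bar) and MIR4461 (upper part). The bars reach between 21.6% in Rec-1 sgRNA 1, where MIR6723 alone held 9.0%, and 36.9% in Jeko sgRNA 2.

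The MTRNR2L rows went from a mean of 0.0696 FPKM to 975 and kept 1 order, MTRNR2L2, 9, 8, 1, 10, 6 and 3, in all 6 libraries. MTRNR2L2, the highest, was 371, 1033 and 1037 FPKM in Jeko (control, sgRNA 1, sgRNA 2) and 608, 1226 and 1575 in Rec-1. Both controls lay below all 4 sgRNA libraries. MTRNR2L9 was 238, 493 and 539 FPKM in Jeko and 372, 849 and 874 in Rec-1, in the same order. MTRNR2L8 was 128, 298 and 319 FPKM in the Jeko control and sgRNA 1 and 2, and 204, 396 and 474 in the corresponding Rec-1 libraries. For both rows the controls again lay below every sgRNA library, and the Rec-1 sgRNA libraries were highest.

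MTRNR2L1 was 59.4, 79.6 and 94.4 FPKM in the Jeko control and sgRNA 1 and 2, and 94.3, 136 and 147 in Rec-1. MTRNR2L10 was 8.22, 9.08 and 10.8 FPKM in Jeko and 11.3, 18.2 and 18.1 in Rec-1. In these 2 rows the sgRNA libraries were above the control of their own line, but the Rec-1 control overlapped with the Jeko sgRNA libraries. MTRNR2L6 lay between 0.195 FPKM (Jeko control) and 0.850 (Rec-1 sgRNA 2). MTRNR2L3 was listed at 0 in the Jeko control and Rec-1 sgRNA 2 and at most 0.149 FPKM elsewhere. These last rows were below the minimum mean of 1 FPKM and were not tested, so 7 of the 9 rows were. The table also holds 3 further genes of the family, MTRNR2L4, MTRNR2L5 and MTRNR2L7, with means of 0.101, 0.0424 and 0.0123 FPKM, none of them tested.

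The order of the levels went with likeness to mitochondrial DNA. As a measure, the aligned part of each copy was read in windows of 50 bases, and those with at most 2 differences from MT-RNR2 were counted. Matching windows made up 53.9% of those in MTRNR2L2, 39.4% in MTRNR2L8, 33.3% in MTRNR2L9 and 16.6% in MTRNR2L1, the 4 rows with a mean above 100 FPKM. The share was 7.08% in MTRNR2L6, 6.82% in MTRNR2L10, 3.05% in MTRNR2L3 and 2.77% in MTRNR2L4. It was 0.0668% in MTRNR2L7, with 1 matching window of 1498, and 0 of 1110 windows matched in MTRNR2L5. Neighbours did not keep the order throughout, since MTRNR2L9 was above MTRNR2L8 in FPKM, and MTRNR2L10, with a mean of 12.6 FPKM, above MTRNR2L6, with 0.432. This is a description over 10 copies that share sequence, with a measure chosen after the levels were known, and for MTRNR2L4 and MTRNR2L5 the longest of 3 and 2 aligned pieces was used.

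**Figure D3:**
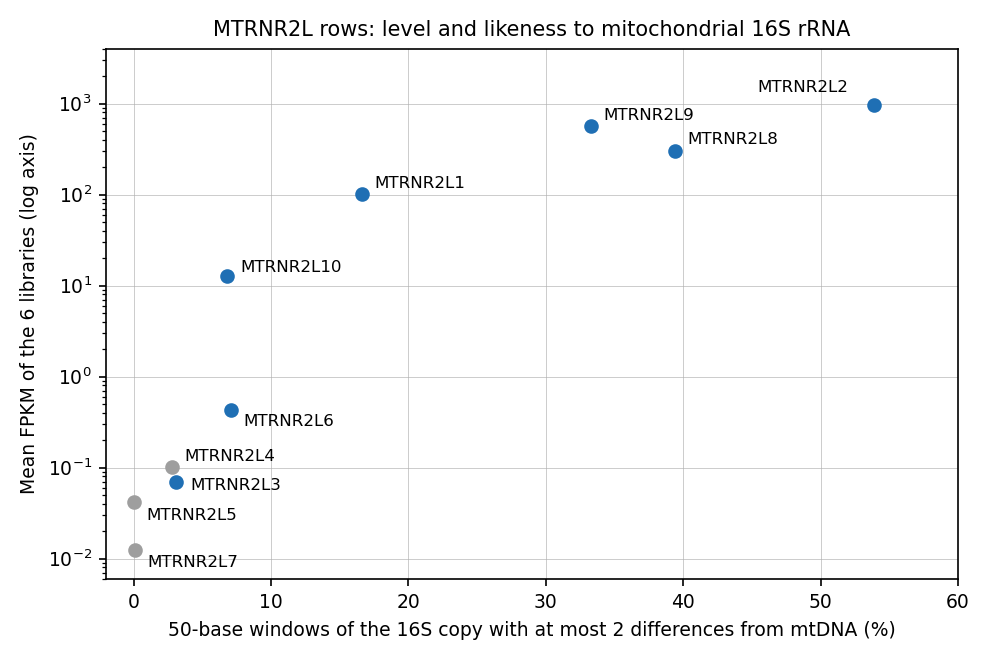
Mean FPKM of the 6 libraries (log axis) against the percent of 50-base windows with at most 2 differences from mitochondrial MT-RNR2, for 7 MTRNR2L rows (blue) and 3 further genes of the family (grey). The level goes from 0.0123 FPKM at 0.0668% of windows (MTRNR2L7) to 975 FPKM at 53.9% (MTRNR2L2).

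The nuclear genes on either side of the MTRNR2L8 copy were far lower than that row. AMPD3, a gene for an AMP deaminase, was at most 1.11 FPKM and RNF141, a gene for a RING finger protein, at most 4.67 FPKM, against at least 128 for MTRNR2L8. Among 21477 rows with a GENCODE entry of the same name, MIR4461 was the only one with an exon that overlapped, by at least 50 bases, a nuclear copy of at least 90% identity. MIR6723, MTRNR2L2, MTRNR2L8 and MTRNR2L9 have no such entry, so this search could not find them. MTRNR2L1, MTRNR2L6, MTRNR2L10 and MTRNR2L3 have an entry in a copy of MT-RNR2. Identity there was 88.4%, 84.3%, 79.9% and 78.5%, below the mark of 90%, so the search left them out.

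The sgRNA libraries were next set against the control of their line. In Jeko, MTRNR2L2 was 2.78 and 2.79 times its control with sgRNA 1 and 2, MTRNR2L8 2.33 and 2.49 times, MTRNR2L9 2.08 and 2.27 times and MIR4461 2.42 and 2.51 times. These 4 of the 7 tested rows were at least 2-fold higher with both guides (1 on the log2(FPKM + 1) scale), where 1.89% of all tested genes were. In Rec-1 MTRNR2L2 was 2.02 and 2.59 times the library labelled control and MTRNR2L9 2.28 and 2.35 times, and these 2 rows passed the same mark, as 11.9% of all tested genes did. MTRNR2L8 was 1.95 and 2.33 times its Rec-1 control. MTRNR2L1 was between 1.34 and 1.59 times its control in the 4 comparisons and MTRNR2L10 between 1.11 and 1.61 times. In any size, 7 of 7 tested rows were higher with both guides in Jeko (36.9% of all tested genes) and 5 of 7 in Rec-1 (41.8%). Each line had 1 control, so these ratios lack a replicate of it.

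Over both lines, limma (4 sgRNA against 2 control libraries, with the line as covariate) called 0 of the 7 tested rows at the adjusted threshold of 0.05, at which 0.246% of all genes tested were called. At an unadjusted p of 0.05, 4 of the 7 passed, MTRNR2L2, 9, 8 and 1, where 21.1% of all genes did. The log2 difference was 1.33 for MTRNR2L2 (SE 0.18, limma adjusted p 0.106). It was 1.16 for MTRNR2L9 (SE 0.15, limma adjusted p 0.106) and 1.17 for MTRNR2L8 (SE 0.17, limma adjusted p 0.127). For MTRNR2L1 it was 0.56 and for MTRNR2L10 0.44, with limma adjusted p of 0.203 and 0.250. Without the library labelled Rec-1 control the difference of MTRNR2L10 was 0.24 (limma adjusted p 0.681). All 5 of these rows were higher in 4 of 4 sgRNA libraries than in their own control. MTRNR2L2, 9 and 8 were 3 of the 7 with all sgRNA libraries above both controls, which 17% of all genes showed. Without the Jeko control library the sgRNA term rests only on Rec-1 sgRNA 1 and 2 against the library labelled Rec-1 control. These libraries differ as described above. In that fit the differences were 1.19, 1.21 and 1.09 for MTRNR2L2, 9 and 8. With every alternative that kept both controls, the limma adjusted p of these 3 rows stayed above the threshold. The highest adjusted p over the alternatives was 0.429 for each of these 3 rows.

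**Figure D4:**
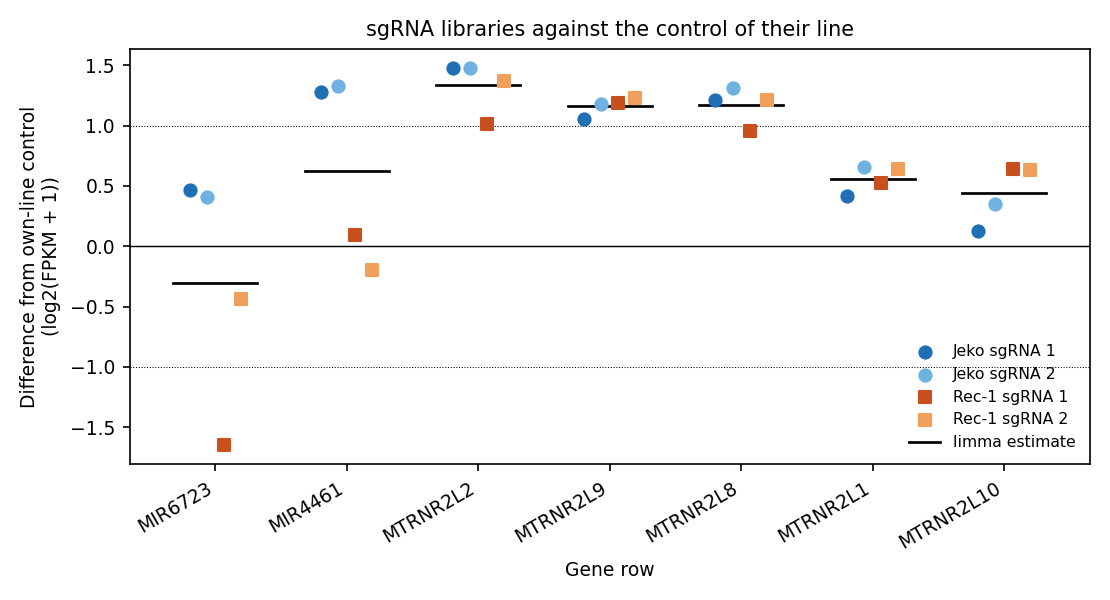
Difference of each sgRNA library from the control of its line on the log2(FPKM + 1) scale for the 7 tested rows, with circles for Jeko, squares for Rec-1 and a black line for the limma estimate; dotted lines mark a 2-fold difference. The points of MTRNR2L2, 9 and 8 lie between 0.96 and 1.48, while MIR6723 lies above 0 in Jeko and below 0 in Rec-1.

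MIR4461 was in the range of the MTRNR2L rows in Jeko but not in Rec-1, and the difference between the rows was not tested. It was 1.07 and 0.873 times its control in Rec-1 sgRNA 1 and 2, against 2.42 and 2.51 times in Jeko. Its limma log2 difference over both lines was 0.63 (SE 0.30, adjusted p 0.271). In the interaction of line and sgRNA the spread comes only from the guides within each line, since the control of a line has no replicate. For MIR4461 this interaction was −1.35 (SE 0.23, limma adjusted p 0.0517), just above the threshold, at which 6.94% of all genes tested were called. With FPKM rescaled to equal sums without the 9 rows it was 0.0482, and over all alternatives it lay between 0.0482 and 0.563. MIR6723 was 1.38 and 1.33 times its control in Jeko, and 0.319 and 0.739 times in Rec-1. Over both lines limma gave a log2 difference of −0.30 (SE 0.45, adjusted p 0.687), and its direction turned to 0.44 without the library labelled Rec-1 control and to 0.06 without Rec-1 sgRNA 1. The other 5 tested rows had interactions between −0.29 and 0.39, with limma adjusted p of at least 0.512, so 0 of 7 passed. At an unadjusted p of 0.05 1 of the 7 did, MIR4461, where 21.9% of all genes passed. Between the guides the limma differences of the 7 rows (guide 2 minus guide 1) lay between −0.12 for MIR4461 and 0.58 for MIR6723, each with a limma adjusted p of 1. Thus 0 of 7 were called and 0 had an unadjusted p under 0.05, against 0.0175% and 2.25% of all genes.

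Ratios between rows of 1 library do not depend on how that library was scaled. MTRNR2L2 was between 2.90 and 3.47 times MTRNR2L8 in all 6 libraries, and MTRNR2L1 between 7.23 and 8.77 times MTRNR2L10. By contrast MTRNR2L2 was 6.25 and 6.45 times MTRNR2L1 in the Jeko and Rec-1 controls, and between 9.03 (Rec-1 sgRNA 1) and 12.98 (Jeko sgRNA 1) times in the sgRNA libraries. MTRNR2L2 was thus further above MTRNR2L1 in each sgRNA library than in either control. MIR6723 was 538 and 420 times MTRNR2L2 in the Jeko and Rec-1 controls, 267 and 255 times in Jeko sgRNA 1 and 2, and 66.5 and 120 times in Rec-1 sgRNA 1 and 2. MIR4461 was between 145 and 176 times MTRNR2L2 in the 3 Jeko libraries and the Rec-1 control, and 93.5 and 59.5 times in Rec-1 sgRNA 1 and 2.

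Likeness of pattern was measured as the largest gap in any of the 6 libraries between 2 genes' log2(FPKM + 1), each centred on its own mean, so that a smaller gap is more alike. The genes closest to MIR6723 were IRF2, IRF1, KDM7A and AAGAB, with gaps from 0.24 to 0.29. Those closest to MIR4461 were PARP15, PLBD2, LINC00506, NEU3 and TRIM56, with gaps from 0.24 to 0.29. MIR4461 was 1.34 from MIR6723, so neither microRNA row was among the nearest of the other. For MTRNR2L2, added after its values were seen, MTRNR2L8 was the second nearest of all tested genes (gap 0.13) and MTRNR2L9 the third (0.28), after the histone gene HIST1H1E (0.12). MTRNR2L1 stood 95th.

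Nuclear genes that make, process or use mitochondrial RNA did not pass the limma test. In the list for transcription of mitochondrial DNA 8 of 9 tested genes were lower, with 0 called, 3 at an unadjusted limma p of 0.05 and a median log2 difference of −0.37. Against the own control this list's median was −0.10 and −0.47 in Jeko sgRNA 1 and 2. It was −0.77 and −0.79 in Rec-1, whose libraries differ as described above. Over all genes tested 49.6% were lower, 21.1% had an unadjusted p under 0.05 and the median was 0.01, and the counts of each list are read against these. Its members with the largest differences were MTERFD1 at −0.93 and MTERF, a termination factor, at −0.88, with limma adjusted p of 0.213 and 0.233. For mitochondrial RNA processing and decay 14 of 20 were lower, with 0 called, 1 at an unadjusted p of 0.05 and a median of −0.20; against the own control the list's median was 0.05 and −0.26 in Jeko sgRNA 1 and 2 and −0.05 and −0.39 in Rec-1. FASTK, of a family of mitochondrial RNA-binding proteins, differed by −1.56 and REXO2, a ribonuclease for short RNAs, by 0.84 (limma adjusted p 0.156 and 0.278). REXO2 was 11.8, 14.4 and 11.1 FPKM in Jeko (control, sgRNA 1, sgRNA 2) and 10.3, 43.0 and 25.1 in Rec-1, so it lay on both sides of its control in Jeko and above it with both guides in Rec-1. For replication of mitochondrial DNA 6 of 10 were lower, with 0 called, 4 at an unadjusted p of 0.05 and a median of −0.20. There SSBP1, the mitochondrial single-strand DNA-binding protein, differed by −0.84 and RRM2B, a ribonucleotide reductase subunit, by 0.72 (limma adjusted p 0.195 and 0.197).

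Mitoribosomal protein genes, whose products assemble with the mitochondrial rRNAs, were lower at 63 of 76 tested genes, with 0 called by limma, 28 at an unadjusted p of 0.05 and a median of −0.45. MRPL24 differed by −1.32 and MRPL12 by −1.17 (limma adjusted p 0.177 and 0.175). Short transcripts as a whole were also lower. Among tested genes of at least 200 nt the median difference was −0.26 in the shortest of 5 equal groups by annotated length and 0.25 in the longest, and the median mitoribosomal transcript, 1722 nt, belongs to the shortest group. The part of length in the list's median was not tested. Of 8 genes for proteins that bind humanin or form its receptors 4 were tested, all 4 lower over both lines with a median of −0.29, 0 called and 0 at an unadjusted p of 0.05. The lines differed in direction: the list's median against the own control was 0.15 and 0.13 in Jeko sgRNA 1 and 2 and −0.999 and −0.717 in Rec-1, a difference that was not tested for the list. BAX, a pro-apoptotic protein bound by humanin, differed by −0.96 and IL27RA, a receptor chain, by −0.32 over both lines (limma adjusted p 0.244 and 0.549). BAX was 152, 165 and 91.6 FPKM in Jeko and 126, 44.003 and 37.4 in Rec-1. IL27RA was 23.0, 26.1 and 30.9 FPKM in Jeko, above its control with both guides, and 21.4, 9.99 and 11.4 in Rec-1, below it with both. The fit without the Jeko control library compares only libraries labelled Rec-1, so its calls in these lists are not read as an sgRNA effect.

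Marker lists showed the difference between the libraries labelled Rec-1 again. Of 7 tested B-cell and mantle cell lymphoma markers 5 were lower over both lines (median −0.52), with 0 called for the sgRNA effect, 1 at an unadjusted p of 0.05, and 1, CCND1, called for the interaction (−8.24, limma adjusted p 0.00937), as 6.94% of all genes were. Against the own control the list's median was 0.45 and 0.40 in Jeko sgRNA 1 and 2 and −1.11 and −0.80 in Rec-1. All 3 tested T-cell markers were higher over both lines (median 1.98, with 0.01 and −0.29 in Jeko sgRNA 1 and 2 and 3.52 and 2.84 in Rec-1), with 0 called for the sgRNA effect and CD3D and CD3E called for the interaction (6.24 and 2.90, limma adjusted p 0.00853 and 0.0151); 1 had an unadjusted p of under 0.05 for the sgRNA effect. CD5 of the B-cell list and CD8A of the T-cell list were below the minimum mean and were not tested. Calls of the fit without the Jeko control library, which compares only libraries labelled Rec-1, are not read for these lists either.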

How the data were processed

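The authors deposited 1 table of FPKM values with a column for each of 6 libraries, per the file headers. TopHat and hg19 are named in the submitters' processing notes; the program that computed FPKM, the annotation, the handling of fragments that map to several places and the use of strand are not given in the sources used here. Total depth is unknown, so no counting interval was computed. Values were analysed as log2(FPKM + 1), which understates changes of low genes, for genes whose mean FPKM was 1 or more, in limma 3.58.1 (R 4.3.3, eBayes with trend) with Benjamini-Hochberg adjustment over all 11400 genes tested. The fit was tested on simulated data. P-values measure the spread between these libraries, since separate cultures are not stated. Those of the interaction take their spread only from the guides within each line, because the control of a line has no replicate.

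Nuclear copies were found with blastn 2.17.0 (e-value 1e-10) of the mitochondrial sequence (16569 bases) against GRCh37, the assembly behind hg19, with GENCODE v44lift37 annotation. Gene placement by neighbours used RefSeq names of assembly GRCh38.p14 without its coordinates. GENCODE names matched 21477 of 25277 rows. Low values were compared at under 0.05 FPKM. Members and lists were chosen with earlier results of these data known. All 9 rows are named; for the microRNA rows the 5 genes of smallest gap, of which some results are not reported here; and of each list the genes called or, with none, the 2 tested genes of largest difference. Alternatives were another pseudocount, filters, scalings, a fit without trend, a replicate block and each library left out.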

Additional observations from a re-analysis of the deposited data

Results flagged for a closer look

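MIR6723 was above its control with both guides in Jeko and below it with both guides in Rec-1, as 10.8% of all tested genes were. The interaction of line and sgRNA was −1.48 on the log2 scale with an SE of 0.75. Its limma adjusted p of 0.346 did not pass the threshold. The interaction was −0.87 without Rec-1 sgRNA 1 and −2.08 without Rec-1 sgRNA 2.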

How the results depend on the processing

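With 1 control a line, and an unknown depth, low rows such as MTRNR2L3 allow no comparison. For sgRNA against control the count of 28 genes became 12 without a filter on low values, and 11 to 2180 with each library left out, 2180 being without the Jeko control. A replicate block on the guide number gave 9; deviations of same-numbered guides correlated at 0.0998, and the block changed no call among the 7 rows. The interaction count of 791 became 318 at a mean of at least 5 FPKM and 75 to 454 with a library left out, lowest without Jeko sgRNA 2. The guide count of 2 became 0 without a filter (455 genes at an unadjusted limma p under 0.05) and with each library left out (88 to 654). Genes past the fold with both guides, here higher or lower, went in Jeko from 346 to 1292 at 1.5-fold, 136 at 4-fold and 580 at a pseudocount of 0.1, and in Rec-1 from 2651 to 4609 and 889 at 1.5-fold and 4-fold. The shares given in the results counted higher genes only, 215 in Jeko and 1355 in Rec-1. Of the 9 rows, 4 passed in Jeko and 0 at 4-fold; in Rec-1 2 passed, 4 at 1.5-fold and 0 at 4-fold. With a library left out the sgRNA difference of MIR4461 went from −0.051 to 1.301 and that of MIR6723 from −1.04 to 0.44, the interaction of MTRNR2L1 from −0.080 to 0.16, and the guide differences of MIR6723 from −0.27 to 1.42, MIR4461 from −0.59 to 0.35, MTRNR2L2 from −0.022 to 0.39 and MTRNR2L10 from −0.077 to 0.29. None of these passed the threshold, and their cause was not tested. Over rows of at least 200 nt the microRNA rows held 27.8%, 39.6% and 39.2% in the Jeko control and sgRNA 1 and 2, and 35.9%, 24.2% and 32.001% in Rec-1. MIR4461 held 0.270%, 0.655% and 0.677% of the fragments of annotated rows in Jeko and 0.485%, 0.532% and 0.440% in Rec-1; of all mapped fragments these became 0.459%, 1.11%, 1.15%, 0.794%, 0.848% and 0.693%. The interaction could not be fitted without a control.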
